A study of Mus musculus with 8 samples.

Results

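The cells described here were B cells of the adult mouse tibia that carried messenger RNA of both Ms4a1, which encodes the surface protein CD20, and Fcmr, which encodes the receptor for the Fc part of IgM. They were chosen by their unique molecular identifier (UMI) counts: at least 1000 detected genes, at most 20% of UMIs from mitochondrial genes, at least 3 UMIs of Cd79a, at least 2 of Ms4a1, at least 1 of Fcmr, none of Dntt, and fewer than 100 UMIs of S100a8 per 10000 UMIs of the barcode. The rule selected 461 cells, 5.77% (5.27 to 6.3) of the 7989 barcodes past the gene and mitochondrial limits, out of 12564 barcodes in all. Ranges in parentheses are exact 95% intervals, Clopper-Pearson for shares and Poisson for counts, and they cover counting error only. For a gene with no UMI in a group, the limit given is instead that of 3 cells out of the group's number. The cells they were compared with, called Vpreb3 cells below, had at least 3 UMIs of Cd79a, at least 2 of Vpreb3 and at most 1 of Ms4a1 under the same limits on genes, mitochondrial UMIs and S100a8, and numbered 1453.

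The mice were 8 weeks old (postnatal day 56), untreated, and of 1 genotype: they carried MMP14 F/+, a floxed allele beside an intact one, the Cre driver COL10A1cre of hypertrophic chondrocytes, the Cre-dependent tdTomato reporter R26-tdT, and the osteoblast reporter Col1a1-2.3-GFP. Trabecular bone with part of the growth plate was taken from the tibiae of 3 mice, the trypsin digests that came off first and held most of the blood cells were discarded, and cells released by later digestion were captured in droplets and sequenced. The labels name chondro-osteogenic cells as the cell type, which these B cells were not, and the study left out clusters with Ptprc, the leukocyte gene CD45. The 8 labelled samples of the single group were deposited as 1 matrix whose barcodes carry no mark of sample or mouse, so the data count as 1 sample, no difference has a replicate check, and no test was run.

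B cells arise in the bone marrow. Pro-B cells join the heavy chain gene segments with the recombinases Rag1 and Rag2 while the polymerase Dntt adds bases at the joins; pre-B cells pair the new heavy chain with the surrogate light chain, made by Vpreb1, Vpreb2 and Igll1, and divide before they join a kappa or lambda light chain gene. The immature B cell then carries IgM, leaves for the spleen through transitional stages, and as a mature follicular B cell carries IgM and IgD, CD20, CD21 (Cr2) and CD23 (Fcer2a), depends on the cytokine BAFF through its receptor Tnfrsf13c, and presents antigen on MHC class II; some mature cells return to the marrow.

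The working name of these cells, mature B cells, was met in part. Of the markers given with the name, the rule did not use Tnfrsf13c and Iglc2. They were chosen with earlier results of these data known, so they describe the cells and do not check the name. Tnfrsf13c (chr15:82221743-82224369, minus strand, mm10) was seen in 400 of the 461 cells and in 972 of the 1453 Vpreb3 cells. Iglc2, a lambda light chain constant gene (chr16:19198396-19200351, minus strand), was seen in 314 and 306. IgM message, Ighm, was seen in 460 and 1447. Marks of the mature follicular stage were sparse: Ighd was seen in 157 cells, Fcer2a in 77 and Cr2 in 16. Marks of earlier stages were common, with Vpreb3, which is active from pre-B to transitional cells, in 332 cells, Cecr2 in 211, Akap12 in 177 and Cd93, a mark of immature and transitional B cells, in 67, whereas Rag1 was seen in 18 and Dntt was excluded by the rule. The cells are therefore called Ms4a1+ Fcmr+ B cells here. Cd3d, Cd3e and Cd3g, which encode chains of the T cell receptor complex, had no UMI in any of the 461 cells, which by 3 of 461 leaves room for up to 0.651% of cells with a UMI. Of the 11 listed T and NK cell genes only 4 had no UMI. The list held 108 UMIs in all, and 3 cells had at least 3 UMIs of its gene Nkg7.

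The genes the rule used are given as a description. Per cell, Cd79a ran from 3 to 32 UMIs with a median of 7, Ms4a1 (chr19:11249675-11266241, minus strand) from 2 to 20 with a median of 4, and Fcmr (chr1:130865669-130880791, plus strand) from 1 to 17 with a median of 2. Cells just inside and just outside the limits on Ms4a1, Fcmr and Cd79a were set side by side. The 90 cells with exactly 2 Ms4a1 UMIs had 234 UMIs of Ighd per 1000000 UMIs (CPM) and 394 of Vpreb3, and the 103 cells left out for having 1 Ms4a1 UMI had 285 and 560.2. The 185 cells with 1 Fcmr UMI had 3886 CPM of Cd74, and the 273 left out for having none had 3055, with 700.5 and 631 CPM of Tnfrsf13c. Vpreb3 stood at 768 CPM (710 to 830) and 1030 (975 to 1087) in these cells, and Ighd at 95.3 and 71.9. At the Cd79a threshold the steps of Cd74 and Tnfrsf13c were larger than at the Fcmr threshold, with the higher value outside. The 42 cells with 3 Cd79a UMIs had 2775 CPM of Cd74 (2572 to 2988), and the 19 left out for having 2 had 5492 (4953 to 6074). Tnfrsf13c stood at 470 and 783 CPM there. Vpreb3, at 386 and 406, and Ighd, at 123 and 130, hardly differed.

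The Ms4a1+ Fcmr+ B cells held 1860 to 37616 UMIs with a median of 3473 and a median of 1393 genes, against medians of 3793 UMIs and 1521 genes in the Vpreb3 cells. Cycling cells, those with UMIs of 2 or all of the division genes Top2a, Mki67 and Birc5, made up 43 of the 461 but 503 of the 1453 Vpreb3 cells, and gave 22.3% and 63.2% of the UMIs of their groups. Many ratios, though not all, are therefore set beside ratios without cycling cells, and those printed alone include them. RNA free in the droplets was gauged in 2166 granulocytes (S100a8 of at least 100 per 10000 UMIs, no Cd79a, median 7214 UMIs), which should lack B cell genes. A doublet caller marked 6 of the 461 cells. In all, 30 carried over 2% globin UMIs or at least 3 UMIs of a gene of another cell type, for example 6 with Lyz2, 4 with Col2a1 and 3 with Elane, and 149 of the Vpreb3 cells did so. They are called mixed barcodes below, and were kept unless stated.

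Among 9579 genes with 50 or more UMIs summed over the 2 groups, 533 (5.56%) were at least 2-fold higher in CPM in the Ms4a1+ Fcmr+ B cells than in the Vpreb3 cells and 1063 (11.1%) at least 2-fold lower, with a median log2 ratio over all of these genes of -0.10. Leaving cycling cells out of both groups brought the counts to 314 (4.11%) and 594 (7.77%) of 7640 genes. Counts of genes in the lists below are to be read against these shares. The plot of log2 ratios by gene list shows how the groups of genes stood. All 13 measured MHC class II genes were at least 2-fold higher and all 16 genes of the pre-B receptor, recombination and early progenitors were at least 2-fold lower, though Vpreb3 and Dntt among the latter were set by the rule. Between these lay B cell receptor signalling, where 14 of 18 genes were within 2-fold.

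**Figure D1:**
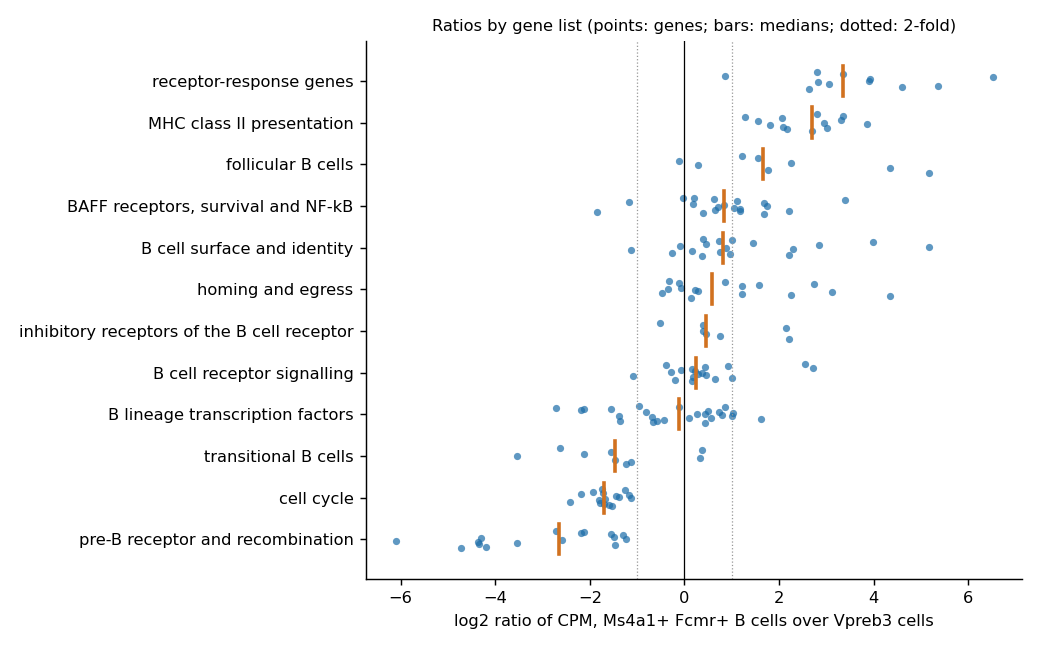
Each point is 1 gene with 50 or more UMIs summed over the 2 groups, placed by its log2 ratio of CPM in 461 Ms4a1+ Fcmr+ B cells over 1453 Vpreb3 cells, in 12 gene lists; orange bars are list medians, dotted lines mark 2-fold, and a gene without UMIs in 1 group sits at its bound. The MHC class II genes all lie to the right of the upper dotted line (median 2.69) and the pre-B and recombination genes all lie to the left of the lower one (median -2.65).

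All 13 measured genes of MHC class II presentation were at least 2-fold higher, though 12 of them with a floor of 1600 genes a cell, where Ciita stood at 0.90 on the log2 scale, and 11 without cycling cells. The list summed to 8243 CPM (8124 to 8363) in the Ms4a1+ Fcmr+ B cells and 1120.4 (1100.0 to 1141) in the Vpreb3 cells, a log2 ratio of 2.88 (2.85 to 2.91), against 181 CPM in granulocytes. The invariant chain Cd74, which occupies the peptide groove during assembly, stood at 4428 CPM (4341 to 4516) against 449 CPM (436 to 462), a log2 ratio of 3.30 (3.25 to 3.35). With every cell thinned to 2000 UMIs, 96.1% of the Ms4a1+ Fcmr+ B cells, 33.2% of the Vpreb3 cells and 2.74% of the granulocytes had a Cd74 UMI. The gene was thus seen in nearly all of the former and in a minority of the latter.

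The chains of the classical molecules followed. H2-Aa, the alpha chain of I-A, was at 1036 CPM against 160.0, a log2 ratio of 2.69 (2.60 to 2.79). Its partner H2-Ab1 was at 915 against 204 (2.17 on the log2 scale), and the I-E beta chain H2-Eb1 at 721 against 89.4 (3.01). Unlike Cd74, each was seen in only some of the cells: 294 of 461 for H2-Aa, 294 for H2-Ab1 and 259 for H2-Eb1. The peptide editor genes were higher too, with log2 ratios of 2.09 for H2-DMa, 1.80 for H2-DMb1 and 3.85 for H2-DMb2, as were those of the editor's inhibitor, with 2.94 for H2-Oa and 1.56 for H2-Ob. Ciita, the master activator of the family (chr16:10480059-10528418, plus strand), was scarce at 45 CPM against 10.8 with a log2 ratio of 2.06 (1.66 to 2.47). The costimulatory genes of the list, Cd83 and Cd86, had log2 ratios of 3.35 and 2.79. Without cycling cells 11 of 13 genes passed 2-fold, the exceptions being H2-Ob at 1.00 and the protease Ctss at 0.47, and the list's log2 ratio was 2.41. In that setting Cd74 stood at 2.66, H2-Oa at 2.20, Cd83 at 2.49 and Cd86 at 1.94.

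Promoters of this family are known for a shared inverted CCAAT element, the Y box. The windows from 150 to 31 bases before the start of H2-Aa (chr17:34287854-34287973 on the minus strand), H2-Eb1 (chr17:34305717-34305836 on the plus strand) and H2-Oa (chr17:34092229-34092348 on the plus strand), from RefSeq on GRCm38.p6, are shown 5′ to 3′ because these 3 genes, which were all higher here, share the 8 letters CTGATTGG, in capitals, at 51, 62 and 46 bases before the start.
H2-Aa: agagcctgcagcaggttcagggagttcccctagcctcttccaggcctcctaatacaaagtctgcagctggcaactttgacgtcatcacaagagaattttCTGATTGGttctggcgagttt
H2-Eb1: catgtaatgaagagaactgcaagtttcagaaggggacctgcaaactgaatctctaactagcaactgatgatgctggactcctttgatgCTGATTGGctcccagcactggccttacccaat
H2-Oa: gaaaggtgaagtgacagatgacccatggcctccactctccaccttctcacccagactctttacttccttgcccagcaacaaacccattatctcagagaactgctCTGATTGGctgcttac
Read on both strands over the 250 bases before the start, CTGATTGG was in 3 of the 9 genes of the list that have a RefSeq entry and in 3.83% of all 32851 promoters. The 5 letters ATTGG contained in it were in 7 of the same 9 genes, namely the 7 H2 genes, and in 33.8% of all promoters. These matches describe the letters of the windows; the data hold no measure of binding there.

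The heavy chain genes separated IgD from IgM. Ighd was at 121 CPM (107 to 136) in the Ms4a1+ Fcmr+ B cells and 35.3 CPM (31.8 to 39.1) in the Vpreb3 cells, a log2 ratio of 1.77 (1.54 to 2.00), which was 1.52 without cycling cells. Ighm was at 3765 CPM (3685 to 3847) against 3000.2 CPM (2967 to 3034), a log2 ratio of 0.33 (0.29 to 0.36) that was -0.09 without cycling and Jchain-bearing cells, so that IgM message differed little. Both Ighm and Ighd were seen in 156 cells, 33.8% (29.5 to 38.4), against 19.8% (17.8 to 22) of the Vpreb3 cells and 0.231% of granulocytes. At 2000 UMIs a cell, Ighd was seen in 21.6% of the Ms4a1+ Fcmr+ B cells, 9.01% of the Vpreb3 cells and 0.149% of granulocytes. Message of switched classes was nearly absent: Ighg1 and Ighg2c had no UMI in the 461 cells (up to 0.651% each, by 3 of 461), Ighg2b had 4 UMIs, and the 5 UMIs of Ighg3 lay in 1 cell. Igha was seen in 37 cells, 4.42% at 2000 UMIs, beside 3.32% of granulocytes.

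Light chain message was found in every cell, and in most of them from both loci. Per cell, Igkc ran from 0 to 99 UMIs with a median of 15, and the lambda genes Iglc1, Iglc2 and Iglc3 together from 0 to 71 with a median of 5. Lambda UMIs outnumbered kappa UMIs in 80 cells, 17.4% (14 to 21.1), and made up at least 80% of light chain UMIs in 29, 6.29% (4.25 to 8.91). At least 3 UMIs of each kind were seen in 298 cells, 64.6% (60.1 to 69), against 18.2% (16.2 to 20.2) of the Vpreb3 cells and 3 of 2166 granulocytes. That share was 64.7% without mixed barcodes and 62.7% without cycling cells. No light chain UMI was seen in 119 of the Vpreb3 cells.

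**Figure D2:**
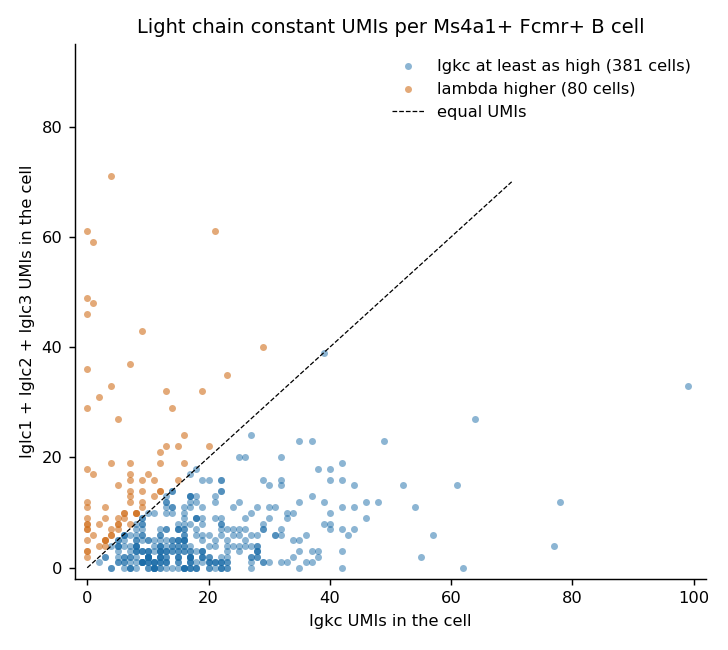
Each point is 1 of the 461 Ms4a1+ Fcmr+ B cells, with its Igkc UMIs on the horizontal axis and its summed Iglc1, Iglc2 and Iglc3 UMIs on the vertical axis; the dashed line marks equal UMIs. The 80 orange cells lie above the line, and many of the 381 blue cells hold lambda UMIs as well.

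The 3 lambda genes were unequally spread over both classes of cells. In the 80 cells with mostly lambda UMIs (median 3049.5 UMIs a cell), Iglc1 stood at 2269 CPM, Iglc2 at 2059 and Iglc3 at 376. In the other 381 (median 3549) the same genes stood at 286, 526 and 286, and 139 of these cells held at least 3 Iglc2 UMIs. Granulocytes had 2.0, 2.14 and 1.62 CPM of the 3 genes and 33.9 of Igkc, so the lambda level in cells with mostly kappa UMIs was far above that in cells that should lack it. Igkc in turn was at 1627 CPM in the lambda class and 3966 in the other. Variable genes were hardly counted: 91 UMIs over 160 Igkv genes, 1.13 per 100 Igkc UMIs, and 8 UMIs over 3 Iglv genes, 0.223 per 100 lambda constant UMIs. These counts therefore do not tell which constant UMIs came from joined genes.

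The lambda constant genes lie on chromosome 16 and resemble one another unequally, which bears on how their reads could be split. Over their GENCODE M21 transcripts Iglc2 and Iglc3 were identical at 432 of 458 aligned positions (94.3%), and Iglc1 and Iglc2 at 309 of 463 (66.7%). The first 100 bases from a shared start of the constant exon are shown 5′ to 3′, with capitals where Iglc2 differs from Iglc3 (in both), and where Iglc1 differs from Iglc2 (in Iglc1); they lie on the minus strand of mm10 at chr16:19061970-19062069, chr16:19198751-19198850 and chr16:19065580-19065679.
Iglc1: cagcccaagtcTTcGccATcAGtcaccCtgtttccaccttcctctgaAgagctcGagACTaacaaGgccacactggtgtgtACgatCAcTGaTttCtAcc
Iglc2: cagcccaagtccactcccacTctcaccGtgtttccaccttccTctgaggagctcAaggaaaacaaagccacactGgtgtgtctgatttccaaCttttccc
Iglc3: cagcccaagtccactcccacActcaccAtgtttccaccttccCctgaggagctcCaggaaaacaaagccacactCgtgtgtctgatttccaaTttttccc
The stretch holds 6 differences between Iglc2 and Iglc3 and 23 between Iglc1 and Iglc2. How reads were divided between Iglc2 and Iglc3, or between either of them and Iglc1, was not tested. The separate values of these genes are to be read with that limit. Against the Vpreb3 cells, the log2 ratios were -0.38 for Iglc1, 1.97 for Iglc2, 1.00 for Iglc3 and -0.59 for Igkc, but 8 Vpreb3 cells with at least 5 UMIs of Jchain, a plasma cell gene, held 41128 of the 56334 Igkc UMIs and 6939 of the 11153 lambda UMIs of that group. Without them the ratios were 2.08, 2.11, 1.47 and 1.28, and without cycling cells as well 0.96, 0.95, 0.23 and 0.59.

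Of the 18 measured genes of B cell surface and identity, 7 were at least 2-fold higher and 1 at least 2-fold lower (median log2 ratio 0.81). Fcer2a, the low-affinity IgE receptor CD23, had the highest ratio, with 131 UMIs at 58.9 CPM against 17 UMIs at 1.65, a log2 ratio of 5.16 (4.43 to 5.98), or 4.16 without cycling cells. Bank1, a scaffold of B cell receptor signalling, followed at 129 against 8.14 CPM (log2 ratio 3.99, 3.63 to 4.36), or 3.05 without cycling cells. The glycoproteins Cd52 and Ly6d were at 1111 against 227 and 1598 against 583 CPM; Cd52 was as high in granulocytes (1181), and their log2 ratios of 2.29 and 1.45 were 1.62 and 0.45 without cycling cells. Cd24a, which is high on immature B cells, was the gene that was lower, at 382 against 841 CPM (log2 ratio -1.14, -1.24 to -1.04), and it too came within 2-fold without cycling cells (-0.48). Cd79b, a signalling chain of the B cell receptor, had a log2 ratio of 0.15, or -0.28 without cycling cells.

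Of the 7 measured genes that restrain the B cell receptor, 2 were over 2-fold higher: Cd22, a sialic acid receptor, at 111 against 24.1 CPM (log2 ratio 2.20, 1.94 to 2.46), and Ptpn6, the phosphatase SHP-1 that it recruits, at 267 against 60.1 (log2 ratio 2.15, 1.99 to 2.32). The other measured members, Cd72, Fcgr2b, Siglecg, Inpp5d and Pecam1, were within 2-fold. Over all measured genes 5.56% were at least 2-fold higher. Within the signalling list, the kinases Syk, Btk and Lyn had log2 ratios of -0.19, 0.18 and 0.65, or -0.57, -0.06 and 0.18 without cycling cells. Genes past 2-fold included Nfatc1, a calcium-driven factor, at 229 against 39.3 CPM (log2 ratio 2.54, 2.35 to 2.73), and the kinase Blk (1.01, or 0.98 without cycling cells). Blnk, the adaptor of the pre-B and B cell receptor, was lower at 183 against 386 CPM (log2 ratio -1.08, -1.23 to -0.93).

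Survival genes differed in both directions. Tnfrsf13c, the BAFF receptor, was at 749 CPM (713 to 786) against 233 CPM (224 to 243), a log2 ratio of 1.68 (1.59 to 1.77) that was 1.05 without cycling cells, and was seen in 71.6% against 43.6% of cells at 2000 UMIs. The second receptor of the family, Tnfrsf13b, differed less (log2 ratio 0.39, 0.15 to 0.62), and Tnfrsf17, the plasma cell receptor, had no UMI. Bcl2 was higher at 31.5 against 9.89 CPM (log2 ratio 1.67, 1.21 to 2.12), and its relative Bcl2l1, which serves pre-B cells, was lower at 20.7 against 46.3 (log2 ratio -1.16, -1.63 to -0.72). Mcl1 (1.10, or 0.60 without cycling cells) and Bcl2a1b (3.40, or 2.61), further anti-apoptotic genes, were higher, Bcl2a1b being 1 of a set of near-identical genes between which reads could be split. Of the NF-kB subunits Rel was furthest from equal, at 731 against 217 CPM (log2 ratio 1.75, 1.66 to 1.84), with Nfkb1 at 1.05 (0.75 without cycling cells) and Relb at 0.83; the receptor Cd40 was at 72 against 15.5 (log2 ratio 2.21, 1.89 to 2.54), or 1.54 without cycling cells. In all 9 of 19 genes of the list were at least 2-fold higher and 2 lower, or 5 and 1 of 18 without cycling cells.

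Genes of homing to lymphoid tissue were at least 2-fold higher or within 2-fold. Cxcr5, the receptor that leads B cells into follicles, was at 90.9 CPM (78.8 to 104) against 4.46 CPM (3.26 to 5.95), a log2 ratio of 4.35 (3.88 to 4.84), or 3.69 without cycling cells. Ccr7, which leads to the T zone border, was at 301 against 63.4 CPM (log2 ratio 2.25, 2.09 to 2.40), and Gpr183, an oxysterol receptor that positions B cells at the follicle edge, at 24.3 against 2.81 (log2 ratio 3.11, 2.43 to 3.82). S1pr1, which serves exit into blood, was at 136 against 58.4 CPM, and its log2 ratio of 1.22 was 0.41 without cycling cells. Cxcr4, the marrow retention receptor, was at 265 and 241 CPM, and the trafficking factor Klf2 had a log2 ratio of -0.11. The log2 ratio of Cxcr4 was 0.14, and without cycling cells Cxcr4 and Klf2 stood at -0.25 and -0.63. In all 7 of 16 measured genes were at least 2-fold higher and 0 lower, or 4 without cycling cells.

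Of 25 lineage transcription factors, 3 were at least 2-fold higher and 6 lower, beside 5.56% and 11.1% of all measured genes. Without cycling cells the counts were 1 and 7, beside 4.11% and 7.77%, so the number of higher factors was near the share over all genes. Pax5 (0.43), Spib (0.56), Irf8 (0.74) and Foxo1 (0.43), which serve B cells throughout, were within 2-fold, with and without cycling cells, Foxo1 standing at -0.14 without them. Higher were Pou2f2, the factor Oct-2, at 249 against 80.7 CPM (log2 ratio 1.63, 1.47 to 1.78), and, near the line, Irf4 (1.02) and Ikzf3 (1.01), which were at 0.84 and 0.43 without cycling cells. Lower were Lef1 and Sox4, known from progenitors, and Myb, Tcf3 and Bach2, which serve several B cell stages. Lef1 was at 40.5 against 183 CPM (log2 ratio -2.18, -2.50 to -1.87), Sox4 at 93.6 against 411 (log2 ratio -2.13, -2.34 to -1.93), Myb at 132 against 389.8 (log2 ratio -1.56, -1.73 to -1.39), Tcf3 (-1.37) and Bach2 (-1.38). Erg, with 3 UMIs in 1 cell, was lower as well.

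All 16 measured genes of the pre-B receptor and of recombination were at least 2-fold lower (14 of 14 apart from Vpreb3 and Dntt, which the rules set), or 15 with a floor of 1600 genes a cell or no limit on Fcmr, and 15 of 15 without cycling cells. Rag1 was at 17.1 against 199 CPM (log2 ratio -3.54, -4.05 to -3.08) and Rag2 at 2.25 against 46.6. The Rag1 ratio was -4.23 without cycling cells and ran from -4.51 to -2.12 over the alternatives. The interleukin-7 receptor Il7r was at 40.9 against 247 (log2 ratio -2.60, -2.91 to -2.29). Vpreb1 had 33 UMIs, 51.5% of them in 1 cell, and Igll1 had 20, 65% in 1 cell. Surrogate light chain message was thus scarce outside single cells. Of the 8 genes listed for transitional B cells other than Vpreb3, which the rule of the compared cells used, 6 were at least 2-fold lower, but marks of earlier stages were still seen more often than in granulocytes: at 2000 UMIs Vpreb3 was seen in 57.1% of the Ms4a1+ Fcmr+ B cells and 0.95% of granulocytes, Akap12 in 25.9% and 0.444%, and Sox4 in 15.9% and 0.586%. Cd93 was seen in 7.83% and 10.4%, but myeloid cells can use that gene, so granulocytes give no background for it.

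**Figure D3:**
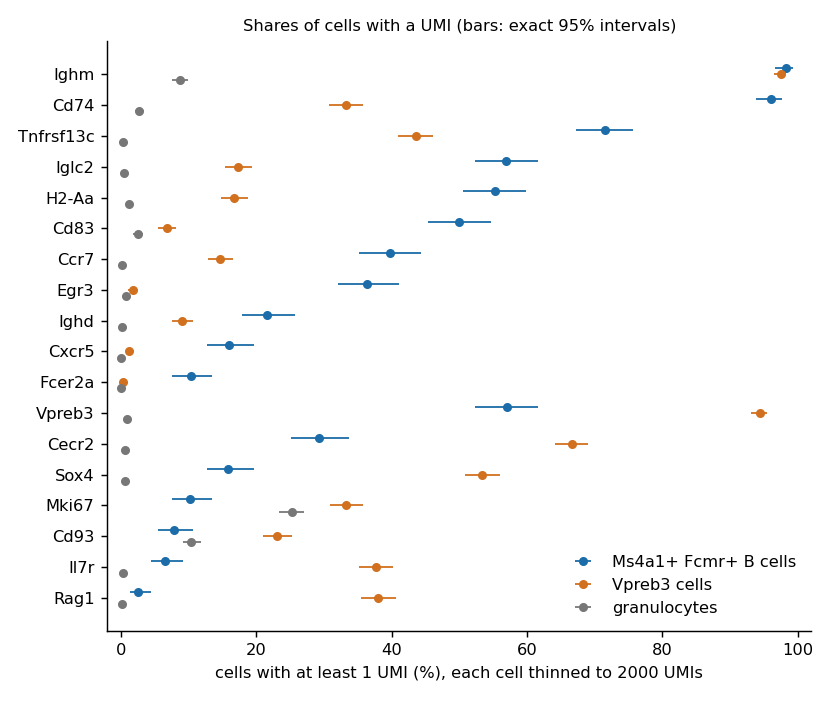
The share of cells with at least 1 UMI of each gene after every cell was thinned to 2000 UMIs, in Ms4a1+ Fcmr+ B cells (blue, 458 cells at that depth), Vpreb3 cells (orange, 1442) and granulocytes (grey, 2166); bars are exact 95% intervals. The blue points lie to the right of the orange ones from Cd74 (96.1% and 33.2%) to Fcer2a (10.4% and 0.394%) and to their left from Vpreb3 to Rag1, and Vpreb3 was part of the rule of the Vpreb3 cells.

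The Ms4a1+ Fcmr+ B cells varied among themselves. Vpreb3, which their rule did not use, ran from 0 to 29 UMIs a cell with a median of 2, and divided them into 129 cells with none, 82 with 1, 144 with 2 to 4 and 106 with 5 or more, of like depth (median UMIs 3626, 3376, 3458 and 3414). These classes are ranges of a count, not cell types, and the 82 cells with 1 UMI lie at the first cut. Across them Ighd stood at 213 CPM (177 to 255), 168, 81.7 and 44.9 CPM (29.1 to 66.3), and Fcer2a at 104, 98.4, 30.4 and 23.3 CPM. For both genes the intervals of the cells with 0 and 1 Vpreb3 UMI overlapped, and those of the first and last class did not. Cxcr5 was not highest in the first class, with 109, 133, 88.6 and 46.7 CPM, nor was Cr2, with 8.81 CPM in cells without Vpreb3 and 23.9 in those with 1 UMI. The log2 ratio of the first class over the last was 2.25 (1.62 to 2.93) for Ighd, 2.15 (1.27 to 3.15) for Fcer2a and 1.23 (0.54 to 1.95) for Cxcr5.

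The MHC class II genes H2-Aa and Cd74 followed the order of Ighd. H2-Aa stood at 1764, 1123, 870.5 and 449 CPM, a log2 ratio of first over last class of 1.97 (1.77 to 2.18), and Cd74 at 5881, 4690.1, 4235 and 3019 (log2 ratio 0.96, 0.88 to 1.05). In each class Cd74 was above the 449 CPM of the Vpreb3 cells. Several marks of earlier stages ran the other way: Akap12 stood at 63.4, 136, 185 and 262 CPM, Sox4 at 42.3, 66.5, 90.0 and 169, and Cd93 at 19.4, 42.6, 45.7 and 91.6. Cd24a and Lef1 did not follow this order over all classes: Cd24a stood at 448, 303, 327 and 438 CPM, a log2 ratio of first over last of 0.03 (-0.23 to 0.29), and Lef1 at 31.7, 47.9, 31.8 and 55.7 (log2 ratio -0.81, -1.74 to 0.07), the interval of each including 0. Both moved with the setting. Without mixed barcodes Cd24a stood at 300.2, 333, 329.5 and 470.2 CPM and Lef1 at 37.8 in the first and 64.1 in the last class. Without cycling cells the first and last values were 273 and 369 for Cd24a, and 33.3 and 17.8 for Lef1, the last from 7 UMIs. Rag1 had no UMI in the cells with 0 or 1 and 23.5 and 37.7 CPM in the others. Ighm differed far less, from 3305 to 4136 CPM, and Ms4a1 itself was slightly higher in the last class, with a log2 ratio of first over last of -0.38 (-0.55 to -0.22). The same ratio was -0.26 (-0.46 to -0.06) for Tnfrsf13c and 0.02 (-0.43 to 0.48) for S1pr1.

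The order of Ighd, H2-Aa and Akap12 over the classes was the same without mixed barcodes (Ighd 249.8, 175, 93.7 and 53.4 CPM) and without cycling cells (239.6, 187, 97.8 and 53.5). The order of Fcer2a turned without mixed barcodes, where it stood at 124, 126, 38.2 and 27.8 CPM. Genes of other cell types were summed in the same classes: neutrophil genes summed to 1465, 2062, 1626 and 2696 CPM, erythroid genes to 52687, 55789.7, 56753 and 38707, and skeletal genes to 437, 748, 159 and 5219, the last through 1 cell that held 93.3% of the Col2a1 UMIs. Of the neutrophil genes in the last class, 97.7% of the Elane UMIs lay in 1 cell and 45.9% of the S100a8 UMIs in 1 cell. The part of genes of other cell types in the result was not tested. Cells with mostly lambda UMIs made up 17.1% (11 to 24.7) of the first class and 13.2% (7.41 to 21.2) of the last, which the counting intervals do not separate.

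**Figure D4:**
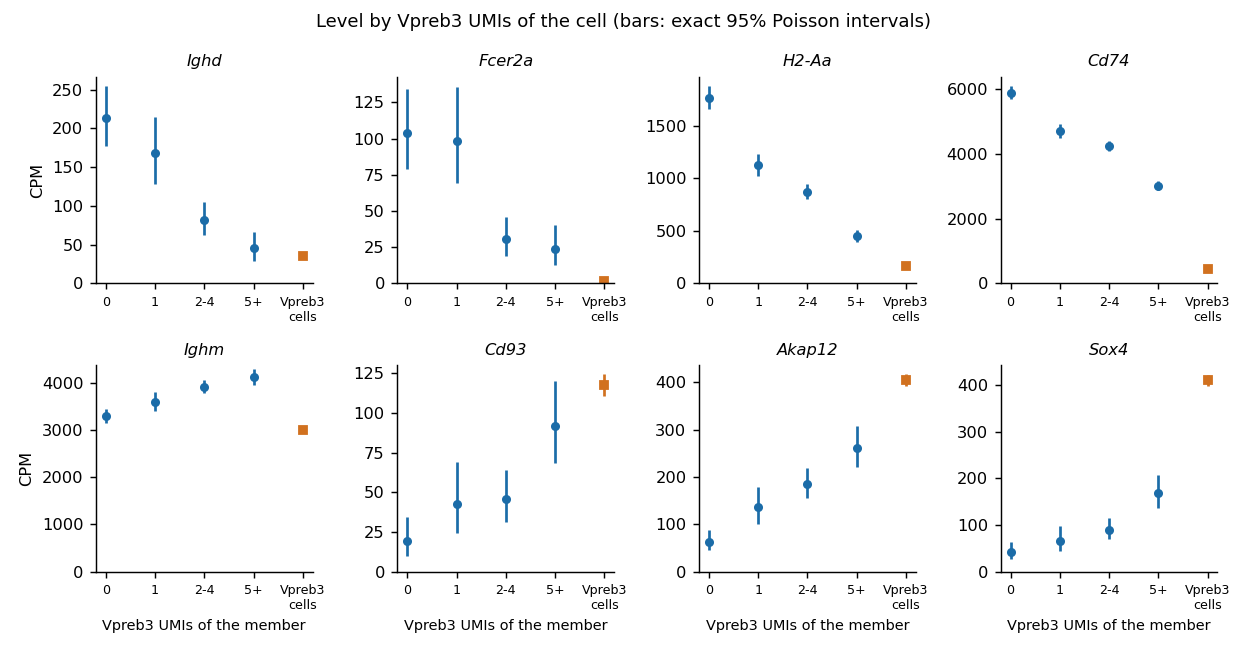
CPM of 8 genes in the Ms4a1+ Fcmr+ B cells split by their Vpreb3 UMIs (blue circles: 129, 82, 144 and 106 cells) and in the Vpreb3 cells (orange squares); bars are exact 95% Poisson intervals and each panel has its own axis from 0. Ighd goes from 213 to 44.9 CPM and Sox4 from 42.3 to 169 across the blue points.

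Genes that B cells are known to switch on early after receptor engagement were higher, 10 of 11 by at least 2-fold (median log2 ratio 3.35). This 11-gene set (Egr1, Egr2, Egr3, Nr4a1, Nr4a3, Nab2, Myc, Il4i1, Cd69, Cd83 and Cd86) was put together after its values were seen, and is a description; Cd83 and Cd86 also count in the MHC class II list. Il4i1, an amino acid oxidase induced in activated B cells, had 295 UMIs in 131 cells at 133 CPM (118 to 149), against 15 UMIs at 1.45 CPM (0.814 to 2.4), a log2 ratio of 6.51 (5.77 to 7.37). Egr3, a zinc finger factor of the early response (chr14:70077203-70082614, plus strand), was at 408 CPM (382 to 435) against 9.89 CPM (8.06 to 12) (log2 ratio 5.37, 5.07 to 5.68). Its relatives Egr2 (35.1 against 1.45 CPM) and Egr1 (622 against 101), the corepressor Nab2 (44.5 against 3.01) and the orphan receptor Nr4a1 (425 against 51.5) were higher as well. Myc was at 166 against 10.9 CPM (log2 ratio 3.93, 3.62 to 4.25). Of the 11, Cd69 stayed within 2-fold (0.86). Without cycling cells 10 of the 11 were at least 2-fold higher, with Il4i1 at 6.13, Egr3 at 4.22, Egr1 at 1.80 and Nr4a1 at 2.27 on the log2 scale. Without mixed barcodes Egr1 and Nr4a1 stood at 3.85 and 3.75, and with a floor of 1600 genes a cell Cd69 passed 2-fold (1.27).

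Many cells held several of these genes. A median of 4 of the 11 was seen per cell, against 1 in the Vpreb3 cells and 1 in the deeper granulocytes, and 174 cells, 37.7% (33.3 to 42.3), had at least 5, against 2.89% (2.09 to 3.89) of the Vpreb3 cells. The 221 cells with an Egr3 UMI (median 3860 UMIs) and the 240 without (median 3200) differed in the other genes: at 2000 UMIs Egr1 was seen in 56.3% and 17%, Cd83 in 63.8% and 37.3%, Myc in 27.6% and 6.62%, and the cyclin gene Ccnd2 in 38.5% and 17.9%. Cd86 did not follow (10.7% and 13.1%), nor did Cd74 by level (4365 and 4491 CPM).

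General marks of dissociation stress differed in both directions and moved with the cells kept. Fos was at 107 against 91 CPM (log2 ratio 0.23, 0.02 to 0.44), with log2 ratios of -0.45 without cycling cells and 1.10 without mixed barcodes, and 33.6% of its UMIs lay in 1 cell. Jun was lower at 157 against 249.7, and the log2 ratios of Jun and Dusp1, -0.67 and -0.90, were -1.27 and -1.88 without cycling cells and -0.53 and 0.28 without mixed barcodes. Of the heat shock genes, Hspa1a, with 11 UMIs, stood at -1.66, or -0.83 without cycling cells, and Hsp90aa1 at -0.54, which turned to 0.29. Junb (log2 ratio 1.43, 1.35 to 1.52) and Ier2 (log2 ratio 1.67, 1.54 to 1.80) were higher, and stood at 0.75 and 1.26 without cycling cells and at 2.01 and 2.18 without mixed barcodes. In all 5 of the 16 immediate-early and heat shock genes were at least 2-fold higher, Egr1 and Nr4a1 among them, and 2 lower, or 3 and 2 of 14 without cycling cells, and 8 and 2 of 16 without mixed barcodes. The part of the enzyme digestion in these levels was not tested. Within the Ms4a1+ Fcmr+ B cells, Egr3 stood at 548, 482, 447 and 163 CPM and Myc at 247, 208, 167 and 52.1 over the classes of Vpreb3 count, so both were lowest in the cells with most Vpreb3. Without cycling cells Myc stood at 279, 217, 144 and 10.2 CPM, the last from 4 UMIs. By contrast, Il4i1 had a log2 ratio of first over last of 0.04 (-0.49 to 0.58).

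**Figure D5:**
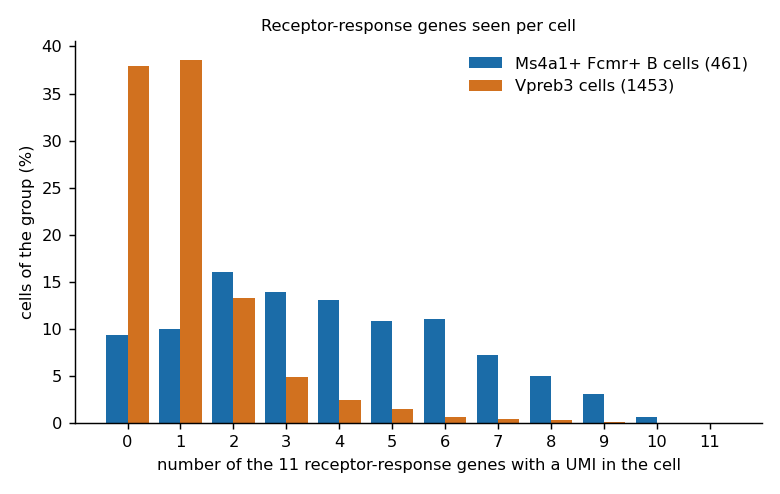
The share of cells of each group (vertical axis, %) by the number of the 11 receptor-response genes with a UMI in the cell (horizontal axis), for 461 Ms4a1+ Fcmr+ B cells (blue) and 1453 Vpreb3 cells (orange). None of the genes was seen in 9.33% of the blue and 37.9% of the orange cells.

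Of the 8 measured follicular genes 6 were at least 2-fold higher (median log2 ratio 1.66), or 5 (median 1.32) without cycling cells. Zfp318, which permits IgD splicing, was at 72.9 against 24.9 CPM (log2 ratio 1.55, 1.26 to 1.84). Of 7 measured marginal zone genes 2 were higher and 2 lower (median -0.18), beside 5.56% and 11.1% of all measured genes. The higher ones were Dtx1, a ligase downstream of Notch, at 90.9 against 29 CPM, and Myof, with 41 UMIs. Their log2 ratios of 1.65 and 2.21 were 0.70 and 1.21 without cycling cells, so Dtx1 no longer passed 2-fold. Of 6 measured B1 and age-associated genes 2 were higher and 2 lower (median -0.09), and the list summed to 397 against 542 CPM. Cd5 had 17 UMIs and Fcrl5 had 8. Bhlhe41, a B1 factor, was at 44.1 against 15.9 CPM (log2 ratio 1.47, 1.10 to 1.84), or 0.49 without cycling cells. Of 5 measured germinal centre and memory genes 1 was at least 2-fold higher and 4 were within 2-fold. The higher one, Rgs13, a regulator of chemokine receptors, had 56 UMIs in 37 cells against 6 in the Vpreb3 cells (log2 ratio 5.44, 4.23 to 6.94), or 3.87 without cycling cells. Jchain did not exceed 2 UMIs in any cell, and of 11 plasma cell genes 6 were lower and 1, Irf4, higher, or 1 and 1 of 9 without Jchain-bearing Vpreb3 cells; Igha and Jchain had low log2 ratios (-6.46 and -6.39) that rested on the 8 Jchain-bearing Vpreb3 cells and stood at 0.22 and 0.67 without them.

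Outside the other lists, that is, all but the receptor-response genes, the 10 genes with the highest ratios by the bound of the interval nearest 0 were Il4i1, Egr3, Btla, Scd1, Bcar3, Sorl1, Irs2, Cd180, Ccnd2 and Mif4gd, of which Il4i1 and Egr3 are receptor-response genes described above. Btla, an inhibitory receptor of lymphocytes, was at 82.3 against 5.72 CPM (log2 ratio 3.85, 3.42 to 4.30) and Cd180, a Toll-like receptor relative of mature B cells, at 86.8 against 13.2 (log2 ratio 2.72, 2.40 to 3.05). Scd1, which makes monounsaturated fatty acids, was at 336 against 40.7 and was seen in 72.2% of the cells. Irs2, an adaptor of the insulin receptor, was at 209 against 32.7 and Ccnd2, the D cyclin of B cells, at 253 against 43.8. Without cycling cells the log2 ratios of Btla, Scd1 and Irs2, 3.85, 3.04 and 2.68, were 3.00, 2.29 and 2.08. The 10 lowest were Ptgr1, Gm37065, Cplx2, Gfra1, Myl4, Hist1h2bc, Smarca4, Tifa, Hist1h1b and Pclaf. Smarca4, the ATPase of the BAF chromatin remodelling complex, was at 123 against 583 CPM (log2 ratio -2.24, -2.42 to -2.07) and the signalling adaptor Tifa at 73.8 against 354 (log2 ratio -2.26, -2.50 to -2.03). Myl4, a myosin light chain gene, was at 84.6 against 439, a log2 ratio of -2.38, or -1.49 without cycling cells. The replication factor Pclaf stood at -0.29 without cycling cells, against -2.11 with them, but the histone genes Hist1h2bc and Hist1h1b, at -2.55 and -2.08, stayed past 2-fold at -1.97 and -1.51. Ribosomal protein genes, summed, hardly differed (0.03), nor did mitochondrial genes (0.20).

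Few of the cells were dividing. The 43 cycling cells were 9.33% (6.83 to 12.4) of the Ms4a1+ Fcmr+ B cells, against 34.6% (32.2 to 37.1) of the Vpreb3 cells. At 2000 UMIs a cell the shares were 6.84% (4.64 to 9.47) and 28.4% (26.1 to 30.8). All 16 cell cycle genes were at least 2-fold lower (median log2 ratio -1.70). That count was 13 (median -1.22) with a floor of 1600 genes a cell and 15 with Ms4a1 of at least 3 or Fcmr of at least 2 UMIs, and without cycling cells 3 of the 10 genes that still had 50 UMIs (median -0.33). The cycling cells had a median of 9542 UMIs, 3 were called doublets and 5 held over 2% globin; they had 38.3 CPM of Ighd against 144 in the other 418 cells, 2738 against 4914 of Cd74, and 859.7 against 19.1 of the neutrophil protease gene Elane, 73.7% of whose UMIs over all 461 cells lay in 1 of the cycling cells. The part of barcodes that joined a B cell with another cell was not tested in this small class.

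RNA of other cell types was found in both B cell groups. The 12 neutrophil genes summed to 1927 CPM in the Ms4a1+ Fcmr+ B cells and 1971 in the Vpreb3 cells, against 315541 in granulocytes, and the 8 erythroid genes to 51032 and 39800. Of the erythroid UMIs, 95.3% lay in the 17 Ms4a1+ Fcmr+ B cells over 2% globin, and the median cell held 0.300% globin. Skeletal genes summed to 1597 and 1454, monocyte and macrophage genes to 162 and 87.2, and T and NK cell genes to 48.6 and 37.6. Within the monocyte sum 1 cell held 97.1% of the C1qa UMIs, and 4 of the 11 T and NK cell genes were at 0. Dendritic cell genes summed to 9.0 and 10.8 CPM with the defining genes Xcr1 and Clec9a at 0, and the plasmacytoid mark Siglech was at 0 as well. The list for plasmacytoid cells summed to 654 and 526 through Irf8 and Tcf4, which B cells also use. Of 9 measured interferon-response genes 1 was higher and 2 lower, and of 14 genes of resting lymphocytes 2 were higher and 0 lower. Over all measured genes 5.56% were at least 2-fold higher and 11.1% lower.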

How the data were processed

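Single-cell suspensions from the tibiae of 3 mice were run on the 10x Chromium system and read with Cell Ranger 3.1.0 against mm10 and a reference of exogenous RNAs, and Seurat 3 is named for later steps, per the labels and the study's methods. The authors deposited raw UMI counts per gene and barcode, not normalized, as 1 mouse matrix (31053 genes, 12564 distinct barcodes, 91463572 UMIs in all) and 1 matrix of exogenous RNAs. A UMI is 1 captured molecule after removal of PCR copies. The study's own floor of 1600 genes was not applied here, since under it the rule found 148 cells. PCR copies are removed, but intervals still cover counting error only.

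Groups were formed from the counts by the stated rules. UMIs were summed per group and divided by the group's total UMIs (CPM), and log2 ratios of CPM were given with exact conditional Poisson intervals in python 3.11.15 with numpy 2.4.6, scipy 1.17.1 and pandas 2.3.3. With 1 pooled sample there was no test and no p-value; a gene was called past 2-fold by its ratio alone if it had at least 50 UMIs in both groups together. A group without UMIs was set to 3 UMIs, which gives a bound. Shares at 2000 UMIs are the exact expectation of drawing 2000 UMIs from each cell without replacement (3 of the Ms4a1+ Fcmr+ B cells, 11 Vpreb3 cells and 0 granulocytes were too shallow), in place of the mean of 100 draws first set down; lambda and cycling shares at that depth are means of 100 seeded draws. Shares without thinning are those quoted as cells of a group. Scrublet, run through scanpy 1.11.5 and set to expect 6% doublets, gave the doublet calls, which were kept (264 of 7989 barcodes called). Figures were drawn with matplotlib 3.10.9. The ratio script was tested on simulated data. Genes named are those of the rule, its markers, 28 gene lists and the 10 genes outside them with the highest and the 10 with the lowest ratio bound, seen in at least 25% of the higher group and leaving out immunoglobulin variable, ribosomal protein and mitochondrial genes; some genes of the lists are not reported here. The cells and the lists were chosen with earlier results of these data known, and the list of receptor-response genes was added after its values were seen. Alternatives were other thresholds, weights, totals and depths. Gene positions are from GENCODE M21 (GRCm38, the build of mm10), in which 30934 of the 31053 gene IDs were found, and promoter windows from RefSeq.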

Additional observations from a re-analysis of the deposited data

Results flagged for a closer look

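The matrix of exogenous RNAs, which no comparison above uses, held signal in these cells. WPRE, the viral element that follows tdTomato in the reporter, was seen in 86 of the 461 Ms4a1+ Fcmr+ B cells (18.7%, 15.2 to 22.5) with 132 UMIs, at most 24 in 1 cell. It was seen in 320 Vpreb3 cells (22%) and in 728 granulocytes (33.6%), groups of greater depth. At 2000 UMIs a cell the shares were 10.4%, 10.1% and 11.4%, and relative to mouse UMIs the levels were 59.4 (49.7 to 70.4), 51.2 (46.9 to 55.7) and 49.6 (46.7 to 52.8) UMIs per 1000000. By share at equal depth the B cells were thus at the level of granulocytes. The study used WPRE over 14 as its cutoff for cells derived from hypertrophic chondrocytes. Counted in UMIs, 1 of the 461 cells, 2 of the 1453 Vpreb3 cells and 2 of the 2166 granulocytes were over 14. The reporter sequences themselves were nearly absent, with 1 UMI of tdTomato, 1 of GFP and 0 of Cre, where by 3 of 461 cells up to 0.651% with a Cre UMI remains possible.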

How the results depend on the processing

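The MHC class II and Ighd ratios kept their direction under the alternatives run, while the number of cells and the sizes moved with the thresholds. The number of cells was 148 with a floor of 1600 genes, 734 with no limit on Fcmr, 276 with Fcmr of at least 2 UMIs. At least 2-fold higher were 290 with a minimum of 200 UMIs, 314 with cycling cells left out, and at least 2-fold lower 577 with a minimum of 200 UMIs, 594 with cycling cells left out. Fewer genes were tested under both settings; the part of dividing cells beyond that was not tested. The MHC class II list's log2 ratio of 2.88 was 2.56 with a floor of 1600 genes, 3.07 with Ms4a1 of at least 1 UMI, 2.75 with at least 3, 2.69 with no limit on Fcmr, 2.98 with Fcmr of at least 2 UMIs, 2.97 with doublets left out, 2.84 with each cell weighing the same, 2.83 with cells thinned to 2000 UMIs, 3.01 with mixed barcodes left out, 2.41 with cycling cells left out. The Ighd log2 ratio of 1.77 was 1.29 with a floor of 1600 genes, 2.12 with Ms4a1 of at least 1 UMI, 1.44 with at least 3, 1.52 with cycling cells left out. Mostly lambda UMIs were seen in 6.29% with at least 80% of light chain UMIs required, 9.46% with a floor of 1600 genes. Thinning to 3000 rather than 2000 UMIs gave shares of 27.2% for Ighd, 15.8% for Fcer2a, 61.6% for H2-Aa, 48.8% for Egr3, 79.3% for Tnfrsf13c, with 144 of 461 cells left out. Of 3798 single-gene ratios under an alternative, 105 had the other sign. Of these, 95 belonged to ratios that were within 2-fold at the start, such as Fos, Hsp90aa1, Iglc1 and Igkc above, and 63 of them lay beyond the counting interval. The other 10 belonged to ratios past 2-fold: Hspa1a to 0.42 and Hspa1b to 0.68 without the Fcmr limit; Igha and Jchain to 0.26 and 0.57 without mixed barcodes and to 0.22 and 0.67 without Jchain-bearing Vpreb3 cells; and Top2a, Ccna2, Mcm5 and Atf3 to 0.41, 0.72, 0.064 and -0.054 without cycling cells. Tnfrsf17 gave no ratio without mixed barcodes or without Jchain-bearing cells, neither group having over 3 UMIs. Further genes named above as past 2-fold came within it elsewhere: with a floor of 1600 genes Bcl2l1 at -0.93 and Blnk at -0.83; with each cell weighing the same Bhlhe41 at 0.84, Ly6d at 0.68, S1pr1 at 0.79, Mcl1 at 0.95, Nfkb1 at 0.86, Irf4 at 0.74, Ikzf3 at 0.61 and Blk at 0.94. Leaving out mixed barcodes, cycling cells or Jchain-bearing cells was chosen after seeing the data. No paired analysis was possible because all samples form 1 group and the barcodes carry no sample. Depth limits the reading of scarce genes: at a median of 3473 UMIs a gene not seen in a cell was not shown to be absent from it, and intervals cover counting error, not differences between mice.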
